A study of Homo sapiens with 6 samples.

Results

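Cadherins and protocadherins are membrane proteins that bind calcium and hold cells to their neighbours. Classical cadherins join like to like across a junction and are tied to actin through catenins, and cells of different types carry different members. Non-clustered protocadherins are single genes of weaker adhesion with roles in sorting and movement of cells, while clustered protocadherins are encoded in tandem arrays in which each first exon has a promoter of its own. Melanocytes in skin are held to keratinocytes largely by E-cadherin, and melanomas often carry N-cadherin instead.

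The genes were taken by symbol, as all protein-coding genes of GENCODE 44 whose symbol is CDH followed by a number or begins with PCDH. This gave 89 genes of the 58302 gene IDs counted, namely 23 CDH genes, 13 non-clustered protocadherins and 53 clustered protocadherins. They were followed in bulk RNA-seq of A375, a human melanoma cell line, in 6 libraries of polyadenylated RNA. In 3 of them the cells carried an empty vector, and in the other 3 they stably overexpressed HMGB2, a chromatin protein that bends DNA. Both lines were made by lentiviral transduction and drug selection, and the replicates were cell pellets that the study calls technical. The spread and the p-values therefore measure differences between pellets, and no separate transduction was compared.

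The normalised read count of HMGB2 was between 7250 and 7729 with the empty vector and between 14609 and 16848 with overexpression. Reads assigned to genes numbered between 45925053 and 56755212 per library. Reads that mapped to several places, which are not counted, made up 10.55% in the third overexpression library. In the other libraries they made up between 2.58% and 4.89%. Of 10 melanocyte lineage markers, MITF and S100B had mean normalised counts of 1442 and 3443 with the empty vector, while MLANA was at 5.60 and TYR had no read in that group. SOX10 was listed at 0 in the column used, which sets aside reads shared by overlapping genes, and had 253416 reads in the sum of the strand columns. PMEL and S100A1 had mean normalised counts of 54.7 and 132 with the empty vector. In the sum of the strand columns they had 10158 and 47661 reads. None of the 7 melanocyte markers tested with DESeq2 was called. The third replicates of both groups stood apart from the others, with deviations from the group means that correlated at 0.349 between them. With the others of the opposite group they correlated at -0.137 to -0.272. Deviations within a group sum to 0, so the positive value forces negative ones, which are not separate evidence. Counts of calls are also given without the third replicates.

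HMGB2 overexpression was accompanied by higher transcript levels of 8 of the 89 genes and a lower level of 1. CDH11 rose 3.72-fold, CDH7 4.71-fold, PCDHA10 2.21-fold and PCDH7 1.99-fold, while PCDH18, PCDHB7, PCDH10 and PCDHA4 rose between 1.46-fold and 1.55-fold. CDH17 was 3.81-fold lower. N-cadherin, T-cadherin and PCDHGC3, which were among the most abundant members, were not called.

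These counts come from DESeq2 at a Benjamini-Hochberg adjusted p under 0.05 over all genes. Of the 89 members, 82 received an adjusted p, and of the 7 without one 2 had no read and 5 had 20 reads or fewer in all libraries together. The 9 calls among 82 stand beside 4.94% of all 18836 genes tested. In the higher direction, 8 members were called beside 2.29% of all genes, and in the lower direction 1 member was called beside 2.64%. The same shares stand beside the counts of each class and list below. The log2 fold change was above 0 in 58 of the 82 members and below 0 in 24, with a median of 0.225 against 0.00272 over all genes tested, of which 50.4% were above 0. With 1 library left out in turn, between 4 and 10 members were called higher and between 0 and 3 lower, the fewest higher (4) without the first empty vector, the first overexpression or the third overexpression library, and the most (10) without the third empty vector library. The lower count was 0 without the first empty vector library and 3 without the third. Over all genes, these leave-out fits called between 155 and 1334 higher and between 208 and 1520 lower. The fewest came without the first empty vector library and the most without the third. With replicates 1 and 2 alone, 8 members were called higher and 3 lower, beside 1203 and 1418 of all genes. All libraries gave 432 and 498, so calls over all genes rose while the members called higher stayed at 8. edgeR tested 74 of the members and called 7 higher and none lower, beside 2.81% of all genes in either direction.

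Separation of the groups was also counted without a model. Among the 73 members with a mean normalised count of 10 or more, all overexpression libraries lay above all empty vector libraries in 20, and below them in 2. Over all genes at that level the share was 11.4% in each direction. The 20 were spread over delta protocadherins (4 of 8), the PCDHA cluster (5 of 15), the PCDHB cluster (6 of 15), the PCDHG cluster (2 of 18), type II cadherins (2 of 8) and type I cadherins (1 of 5). In bulk RNA, fewer cells that transcribe a gene and less RNA per cell cannot be told apart.

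**Figure D1:**
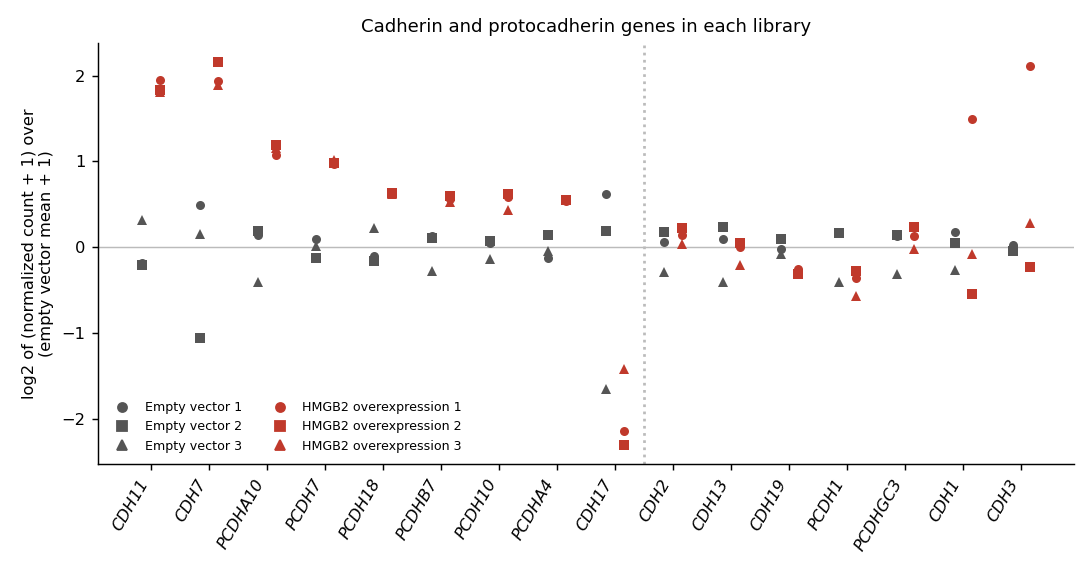
Each point is a library, plotted as the log2 ratio of its normalised count plus 1 to the empty vector mean plus 1, for 16 cadherin and protocadherin genes. The 9 genes left of the dotted line were called, and for 8 of them the red overexpression points all lie above the grey empty vector points, whereas for CDH17 the third empty vector library lies among the red points.

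The repertoire of A375 cells was described first by level. A level is given here as RPKM, the reads per kilobase of countable exon scaled to the assigned reads of the library, where countable exon means exon bases that no other annotated gene overlaps. It is the only scale on which different genes are compared. Of the 89 genes, 87 had at least 500 countable bases and were given a level, a minimum chosen after values had been seen. PCDHA1, with 7 countable bases, and PCDH20 have none.

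PCDHGC3, a clustered protocadherin of the C type, had the highest level, with a mean of 33.6 over 6 libraries. CDH13 followed at 13.6 and PCDH1 at 13.2. CDH13 encodes T-cadherin, which is held in the membrane by a lipid anchor and lacks the tail that binds catenins, and PCDH1 is a delta protocadherin. These neighbours differed by less than the SD of either gene with the empty vector, which was 3.11 for CDH13 and 3.28 for PCDH1. CDH2 stood at 10.3 and CDH19, a type II cadherin of neural crest and Schwann cell precursors, at 9.31. Below these came PCDHB6 at 7.82, PCDHA6 at 6.03, CDH12 at 4.70, PCDHB5 at 3.95 and PCDHB2 at 3.93, of which the last pair differed by less than its spread. This order depends on the length used. Over all exon bases, PCDHGC3 was at 20.1, still highest, while PCDHA6 was at 2.63 and PCDHB2 at 2.21, and PCDHA6 then lay below CDH12 and PCDHB5. Lengths are those of GENCODE 44, and the release the authors counted with is not known. PCDHA1 had 1321 reads in all libraries together on 7 countable bases, so the annotation used for counting differed at least there. Levels of clustered genes are therefore uncertain.

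Most other members were far lower. CDH1 had a level of 0.746 and CDH3 a level of 0.563, so transcripts of E-cadherin and P-cadherin were scarce beside those of N-cadherin. The genes called higher were also not the abundant ones. Their levels over all libraries ran from 0.0181 for CDH7 through 0.168 for CDH11 and 0.349 for PCDH7 to 2.38 for PCDH10. Of all members, 16 had a mean normalised count under 10 and 2 of these had no read in any library, CDH16 among them.

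**Figure D2:**
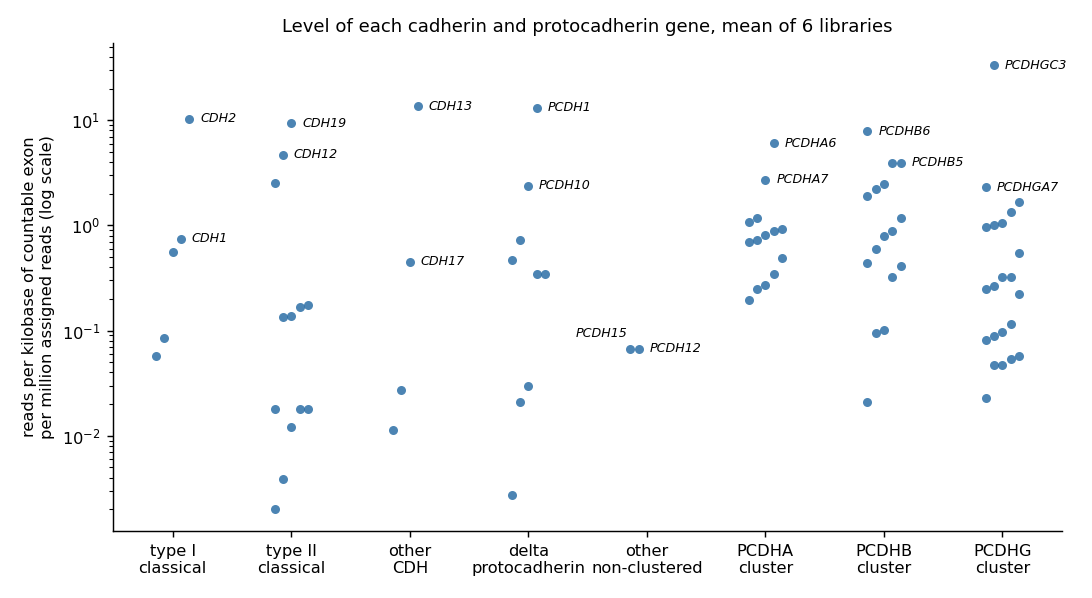
Points are genes with reads and at least 500 countable bases, placed by class along the horizontal axis, with the mean RPKM of the 6 libraries over countable exon on a log axis. PCDHGC3 is highest at 33.6, and the upper genes of each class are named.

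Type I classical cadherins are found in adherens junctions. All 5 had log2 fold changes above 0 and none was called. CDH2, which encodes N-cadherin, had normalised counts of 4322, 4660 and 3388 with the empty vector and of 4560, 4805 and 4223 with HMGB2 overexpression. The groups overlapped, and the log2 fold change was 0.14 with a 95% interval from -0.14 to 0.41 (DESeq2 adjusted p = 0.775).

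CDH1, which encodes E-cadherin, had normalised counts of 197, 180 and 145 with the empty vector and of 491, 119 and 165 with overexpression. CDH3, which encodes P-cadherin, had 108, 103 and 107 with the empty vector and 462, 90.6 and 129 with overexpression. In both genes a single library, the first overexpression replicate, was high, and the other two overexpression libraries lay near the empty vector group. In log2 fold change this gave 0.57 ± 0.63 (SE) for CDH1 and 1.10 ± 0.71 for CDH3, with DESeq2 adjusted p of 0.794 and 0.531. Without that library the value was -0.29 for CDH1 and 0.05 for CDH3. Without the second overexpression library CDH3 was called, at an adjusted p of 0.0113 and a log2 fold change of 1.48.

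The 2 genes are neighbours on chromosome 16, with CDH3 at chr16:68636189-68727468 and CDH1 at chr16:68737292-68835537 on the same strand (GRCh38) and 9824 bases between them. In the first overexpression library, CDH1 was 2.49-fold and CDH3 3.57-fold above the next highest library. Of 16692 genes with a mean normalised count of 10 or more, 35 (0.21%) were at least 2-fold above every other library there, beside 43 such genes (0.258%) in the third overexpression library and between 4 and 9 in each of the other libraries. Beside these 2 members, the 35 genes included GRHL2, an epithelial transcription factor, with reads of 17, 18 and 22 against 60, 15 and 22, and the desmosomal cadherin DSG3, with reads of 4, 2 and 9 against 63, 8 and 14. CDH23, a cadherin of hair cell tip links whose mean is below that minimum, had 32 reads in the same library and between 3 and 6 in the others.

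Epithelial markers were listed beside these cadherins. None of the 8 was at 0. Their summed normalised count ran from 3609 to 4214 with the empty vector and from 3761 to 4706 with overexpression. Overexpression replicate 1 was highest at 4706, close to overexpression replicate 3 at 4678.5. In overexpression replicate 1, GRHL2, KRT19 and ESRP1 were at their highest, ESRP1 by little (107 against 106). KRT14 was at its lowest there (421), and EPCAM, KRT5, CLDN4 and CLDN7 were each higher in another library. None of the 8 was called. KRT5 had reads of 5, 13 and 260 in the empty vector libraries and 275, 203 and 257 in the overexpression libraries, so the third empty vector library was at the overexpression level. The part of epithelial transcripts in the values of CDH1 and CDH3 was not tested.

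**Figure D3:**
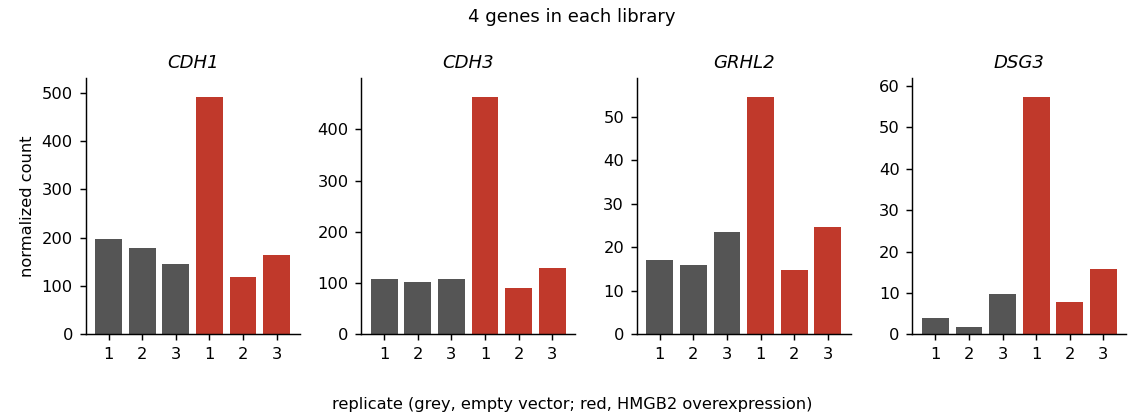
Bars give the normalised count of CDH1, CDH3, GRHL2 and DSG3 in each of the 6 libraries, on axes that start at 0. In all 4 genes the first overexpression library stands above the other 5, and in CDH1 it reaches 491 where the next is 197.

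CDH4, which encodes R-cadherin of retina and brain, was low and did not overlap between groups. It had 18, 12 and 13 reads with the empty vector and 27, 37 and 24 with overexpression, and it missed the threshold at an adjusted p of 0.229. It is named after its values were seen. CDH15, the muscle cadherin, had a log2 fold change of 0.48 at an adjusted p of 0.747.

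Type II classical cadherins share the catenin-binding tail and are typical of mesenchymal and neural tissue. Of 13, 10 were tested and 2 rose, beside 2.29% of all genes. CDH11, a cadherin of osteoblasts and mesenchymal cells, had normalised counts of 41.4, 40.7 and 59.0 with the empty vector and of 184, 170 and 168 with overexpression. The lowest overexpression library was thus well above the highest empty vector library. The mean was 47.1 ± 10.4 (SD, n = 3) against 174 ± 8.97, and the log2 fold change of 1.90 ± 0.24 (SE) had a DESeq2 adjusted p of 1.03e-12. CDH11 was called under all 14 alternative settings, with log2 fold changes from 1.80 to 2.11. The gene lies at chr16:64943753-65126112 on the minus strand.

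CDH7, a cadherin of migrating neural crest cells, was near the floor of detection with the empty vector. It had 7, 2 and 5 reads there and 23, 25 and 18 reads with overexpression, so the groups were separate on few reads. The log2 fold change was 2.24 ± 0.65 (SE), with a 95% interval from 0.97 to 3.50 and a DESeq2 adjusted p of 0.0159. The call was lost when any library but the third empty vector one was left out, with adjusted p from 0.0636 to 0.234. Of 14 alternatives, 11 gave CDH7 an adjusted p and 6 called it. None was given with a replicate block, a term for replicate 3 or replicates 1 and 2 alone. CDH7 and CDH19 lie on chromosome 18 with 611 kb between them.

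CDH19 was at the other end of the scale. Its normalised counts were 3506, 3799 and 3371 with the empty vector and 2987, 2866 and 2874 with overexpression. All overexpression libraries were below all empty vector libraries, and the log2 fold change of -0.29 ± 0.10 (SE) missed the threshold at an adjusted p of 0.0600. Without the third empty vector library CDH19 passed it, at 0.00409, and with replicates 1 and 2 alone at 0.000724. With any other library left out CDH19 was not called, at adjusted p from 0.407 to 0.509. It was called in 4 of 14 alternatives. CDH12, a brain cadherin, had normalised counts of 1333, 1392 and 1391 against 1291, 1268 and 1390, with overlap between groups and a 95% interval of the log2 fold change from -0.26 to 0.14. The other type II genes tested had log2 fold changes from -0.30 for CDH8 to 1.83 for CDH5, a vascular cadherin, and none passed the threshold.

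Fibroblast markers were listed beside CDH11. None of the 7 was at 0 or called, and their summed normalised count ran from 3040 to 4513 with the empty vector and from 4374 to 5443 with overexpression. The third library was the highest of each group. In the empty vector group CDH11 was also highest in the third library, and in the overexpression group it was lowest there. The part of other cell types in the value of CDH11 was not tested.

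Among CDH genes that are not classical, CDH17 was the member called lower. It encodes the liver and intestine cadherin. It had 213, 180 and 41 reads with the empty vector and 34, 28 and 46 with overexpression. The third empty vector library thus lay within the overexpression group, and the mean normalised count of 140 ± 87.3 (SD, n = 3) against 36.7 ± 13.1 rests on the other two. The log2 fold change was -1.93 ± 0.48 (SE, adjusted p = 0.00245). CDH17 was called in 10 of 14 alternatives. The call was lost with edgeR (adjusted p = 0.095), a term for replicate 3 (0.0813), a replicate block (0.172) and without the first empty vector library (0.141, with a log2 fold change of -1.48), and with replicates 1 and 2 alone the value was -2.68.

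CDH13 did not differ beyond its spread. It had normalised counts of 6441, 7091 and 4576 with the empty vector and 6077, 6244 and 5220 with overexpression, and the third replicate was the lowest of each group. The 95% interval of the log2 fold change ran from -0.38 to 0.28. CDH13 had 78.6% of its exon bases clear of other genes.

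Delta protocadherins are non-clustered genes of brain, heart and neural crest derivatives, and several carry short motifs in their tails that bind regulators of actin. Of 10, 8 were tested, 3 rose and none fell, beside 2.29% and 2.64% of all genes. PCDH7, a protocadherin of brain and heart, had normalised counts of 164, 140 and 153 with the empty vector and 299, 302 and 308 with overexpression. Each group was tight and the gap between them was wide, with means of 152 ± 11.9 (SD, n = 3) and 303 ± 4.81. On the log2 scale the difference was 0.99 ± 0.16 (SE) at a DESeq2 adjusted p of 1.32e-07.

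PCDH10, which is known to bind the WAVE complex that drives actin branching, had normalised counts of 1030.4, 1047 and 906 with the empty vector and 1492, 1534 and 1340.4 with overexpression. It was the most abundant of the genes called, and its groups did not overlap. It rose by 0.55 ± 0.12 (SE) on the log2 scale, at a DESeq2 adjusted p of 0.00032. PCDH7 and PCDH10 were called under all 14 alternatives. These genes and PCDH18 are the 3 members on chromosome 4, where 3.61% of the 721 genes tested were called higher.

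PCDH18 had normalised counts of 179, 172 and 224 with the empty vector and 294, 298 and 295 with overexpression. The overexpression libraries were nearly equal and above every control. PCDH18 rose by 0.63 ± 0.17 (SE, adjusted p = 0.00743). With any library other than the third empty vector one left out, the adjusted p was between 0.106 and 0.19.

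PCDH1 had normalised counts of 5010, 5021 and 3390 with the empty vector and 3492, 3698 and 3029 with overexpression. The third empty vector library was below the first 2 overexpression libraries, and the log2 fold change of -0.39 ± 0.17 (SE) had an adjusted p of 0.199. Without that library PCDH1 was called lower, at -0.56 and an adjusted p of 2.56e-06. With any other library left out it was not called, at adjusted p from 0.274 to 0.822, nor with edgeR (0.246). PCDH1 was called in 4 of 14 alternatives. PCDH11X, named after its values were seen, had 4, 1 and 9 reads against 19, 24 and 18 and missed the threshold at 0.0631, and 57.9% of its 50-base words also occur in other genes. PCDH9 and PCDH17 had log2 fold changes of 0.23 and 0.07 with overlapping groups, and PCDH8, with almost no reads, had no adjusted p. Outside the delta class, the non-clustered PCDH12 and PCDH15 had log2 fold changes of -0.57 and -0.45 with overlapping groups and no call. PCDH20 had no adjusted p.

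The clustered protocadherins lie in a row on chromosome 5 as the PCDHA, PCDHB and PCDHG clusters. PCDHB genes are single exons, whereas PCDHA and PCDHG genes splice their own first exon to constant exons shared by the cluster. A read in a constant exon falls in several annotated genes at once and was set aside as ambiguous, so counts of these genes rest on the first exon. Of the 50-base words of PCDHA genes, between 23.9% and 98.4% were shared with other genes, and 43 of all 89 members shared over 30%. Values of single PCDHA and PCDHG genes are therefore uncertain.

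The promoters of these arrays are known for a conserved element close to the start. The windows below are shown because they set the PCDHA genes apart from the PCDHB genes in letters, and in each cluster a called gene is printed beside genes that were not called. They are 60 bases on the plus strand of GRCh38.p14, upstream of the start site that RefSeq gives, with the shared word in capitals.
PCDHA4 (called higher), chr5:140806964-140807023: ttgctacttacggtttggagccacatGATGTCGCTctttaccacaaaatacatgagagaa
PCDHA10 (called higher), chr5:140855826-140855885: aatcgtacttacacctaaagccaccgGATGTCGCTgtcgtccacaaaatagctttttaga
PCDHA6 (not called), chr5:140827882-140827941: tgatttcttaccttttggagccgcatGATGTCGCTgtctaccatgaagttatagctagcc
PCDHA7 (not called), chr5:140834157-140834216: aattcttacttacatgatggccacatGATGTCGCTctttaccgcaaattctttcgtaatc
PCDHB7 (called higher), chr5:141172551-141172610: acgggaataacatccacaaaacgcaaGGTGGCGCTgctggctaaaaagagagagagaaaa
PCDHB2 (not called), chr5:141094529-141094588: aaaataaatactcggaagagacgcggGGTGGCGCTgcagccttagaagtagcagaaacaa
PCDHB12 (not called), chr5:141208628-141208687: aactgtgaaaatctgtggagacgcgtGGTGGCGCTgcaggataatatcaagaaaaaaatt

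The words GATGTCGCT and GGTGGCGCT are the runs of 9 bases that occur in the most promoters of each cluster, so their shares within their own cluster are fixed by that choice. They were searched on both strands, and they end in the same letters, CGCT, which 70% of all promoters in the table hold. Of the 89 members, 70 had a promoter of 250 bases before to 50 after the start among the 35116 promoters in the table. GATGTCGCT was in 9 of 13 PCDHA promoters (69.2%), in none of 14 PCDHB, 20 PCDHG or 23 other promoters of members, and in 0.105% of all promoters. GGTGGCGCT was in 13 of 14 PCDHB promoters (92.9%), in no other member with a promoter there, and in 0.501% of all promoters. Both words occurred in front of called and of uncalled genes, as the windows show. The promoters of CDH11, CDH17 and PCDH10 were not among those in the table.

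In the PCDHA cluster 12 of 15 genes had a log2 fold change above 0, and 2 were called. PCDHA10 had normalised counts of 84.9, 87.7 and 58.0 with the empty vector and 163, 177 and 172 with overexpression. The groups were far apart, with a log2 fold change of 1.15 ± 0.23 (SE) at a DESeq2 adjusted p of 3.57e-05, and PCDHA10 was called under all 14 alternatives. PCDHA4 had 197, 237 and 208 with the empty vector and 311, 314 and 315 with overexpression. Its log2 fold change was 0.55 ± 0.15 (SE) at a DESeq2 adjusted p of 0.0124. That call was lost when any library but the third empty vector one was left out, with adjusted p from 0.056 to 0.296.

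The 2 called PCDHA genes also had the most countable exon of the 15, with 10557 bases for PCDHA4 and 9908 for PCDHA10, followed by PCDHA9 with 6308. The part of length in the calls was not tested. PCDHA6, the PCDHA gene with the most reads, had normalised counts of 783, 803 and 825 against 798, 900.2 and 784. Its groups overlapped, and the 95% interval of the log2 fold change ran from -0.19 to 0.27. PCDHA1 had a log2 fold change of 0.18 at an adjusted p of 0.771 and shared 98.4% of its words with other genes.

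In the PCDHB cluster 14 of 16 genes were above 0 and 1 was called. PCDHB7 had normalised counts of 296, 291 and 222 with the empty vector and 400, 410 and 388 with overexpression. All overexpression libraries were above all controls, and the third control was the lowest. PCDHB7 rose by 0.56 ± 0.16 (SE) on the log2 scale, at a DESeq2 adjusted p of 0.0142. The call was lost with edgeR (0.0641) and when any library but the third empty vector one was left out (0.0696 to 0.198). PCDHB7 kept 65.1% of the reads that the strand columns gave it, and 7 members in all kept under 70%.

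PCDHB5 and PCDHB2 were not called. PCDHB5 had normalised counts of 483, 578 and 386 against 689, 722 and 626, with separate groups, a log2 fold change of 0.49 ± 0.17 (SE) and an adjusted p of 0.0657. PCDHB5 passed the threshold in 4 of 14 alternatives. They were a replicate block (0.00332), a term for replicate 3 (0.000601), replicates 1 and 2 alone (0.0257) and the fit without the second empty vector library (0.0175). PCDHB2 had 448, 403 and 356 against 487, 591 and 458, and an adjusted p of 0.266. It passed only with a term for replicate 3 (0.0437). PCDHB6, the most abundant of the cluster, had 1217, 1329 and 1026 against 1277, 1414 and 1260.5, with overlap and an adjusted p of 0.737. The PCDHB genes without a call had log2 fold changes from -0.06 to 0.50.

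In the PCDHG cluster 12 of 22 genes were above 0, none was called by DESeq2, none had an unadjusted p under 0.05, and edgeR called none of the PCDHG genes either. PCDHGC3 carried 75.7% of the reads of the cluster and had normalised counts of 5796, 5823 and 4253 with the empty vector and 5814, 6223 and 5239 with overexpression. The groups overlapped, the third library was the lowest of each, and the 95% interval of the log2 fold change ran from -0.17 to 0.41. Without the third empty vector library the value was -0.01. The other genes ranged from -0.72 for PCDHGC4 to 1.24 for PCDHGA8, both with few reads.

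Summed over the cluster, the PCDHA genes had normalised counts of 2686, 2705 and 2910.5 with the empty vector and 3088, 3368 and 3185 with overexpression, a log2 ratio of 0.22. The PCDHB genes had 3934, 4244 and 3199 against 4635, 4999 and 4392, a log2 ratio of 0.30. In both clusters all overexpression libraries were above all empty vector libraries, with p = 0.1 in an exact two-sided permutation test, the smallest that 3 libraries against 3 allow. The PCDHG genes had 7678, 7862 and 5610 with the empty vector and 7729, 8097 and 6778 with overexpression, with overlap and an exact p of 0.6. Without the gene with the most reads, the log2 ratio was 0.28 for PCDHA, 0.37 for PCDHB and 0.01 for PCDHG. The differences between clusters were not tested.

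**Figure D4:**
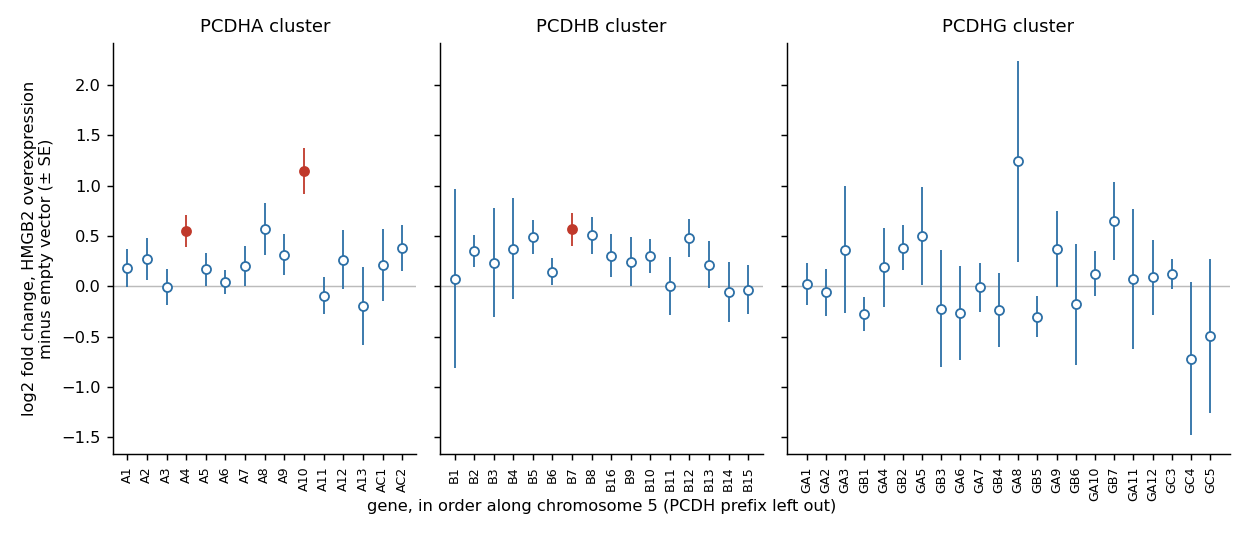
Log2 fold change of each clustered protocadherin, HMGB2 overexpression minus empty vector, with its SE as the bar, in gene order along chromosome 5. Filled red points are the called genes PCDHA4, PCDHA10 and PCDHB7, and 14 of 16 PCDHB points lie above 0 against 12 of 22 PCDHG points.

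The genes that work with cadherins were taken from 6 lists. The catenins and plaque proteins, which tie cadherins to the cytoskeleton, had 19 of 22 genes tested and 1 called. CTNNB1, which encodes beta-catenin, had normalised counts of 19272, 20025 and 20889 with the empty vector and 24435, 26049 and 26404 with overexpression. The groups were separate, and the log2 fold change was 0.35 ± 0.09 (SE, adjusted p = 0.00432). The call was lost with edgeR (0.0585) and when any library but the third empty vector one was left out (0.105 to 0.232). The median log2 fold change of the list was -0.10, and CTNNA1 and CTNND1, for alpha-catenin and p120-catenin, had -0.10 and 0.07 without a call.

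Of 12 transcription factors known for switching cells between cadherins, 2 were called higher and 1 lower, beside 2.29% and 2.64% of all genes. PRRX1, a mesenchymal homeobox factor, had normalised counts of 4546, 5075 and 4672 against 6714, 6833 and 6145, a log2 fold change of 0.46 ± 0.10 (SE, adjusted p = 0.000357). TCF4, an E-box factor, had 385, 382 and 329 against 555, 545 and 499, a log2 fold change of 0.54 ± 0.14 (SE, adjusted p = 0.00339). FOXC2, a forkhead factor of mesenchyme, had 785, 621 and 508 against 341, 329 and 263, and fell by 1.03 on the log2 scale (SE 0.19, adjusted p = 8.75e-06). None of the 3 overlapped between groups.

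FOXC2 was called under all 14 alternatives. PRRX1 and TCF4 each lost the call without the first empty vector library (0.0596 and 0.0549), the first overexpression library (0.0717 and 0.158) or the second (0.0611 and 0.122). SNAI1, TWIST1 and ZEB1, which repress E-cadherin, had log2 fold changes of 0.05, 0.02 and 0.02 and were not called. Among their relatives in the list, SNAI2 and ZEB2 had 0.49 and 0.19, and SNAI3 and TWIST2 had -0.58 and -0.12, also without a call.

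Among 24 other genes of the cadherin superfamily, 21 were tested and 1 was called. CLSTN3, a synaptic calsyntenin, had normalised counts of 130, 112 and 109 with the empty vector and 193, 254 and 174 with overexpression. All overexpression libraries were above all controls, with a log2 fold change of 0.82 ± 0.21 (SE, adjusted p = 0.00492). The call was lost without the second empty vector library (0.0857), the first overexpression library (0.0532) or the second (0.206). FAT1 and DSG2, the most abundant atypical and desmosomal cadherins of the list by reads, had log2 fold changes of 0.16 and 0.08.

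The remaining lists held no gene called by DESeq2, and each had 1 gene with an unadjusted p under 0.05. They were the proteases that shed cadherins (10 genes, median log2 fold change -0.07), the factors of protocadherin promoter choice (13 genes, median -0.03) and the actin and kinase partners of protocadherins (11 tested, median 0.02). CTCF and RAD21, which fold the clusters onto their enhancers, had 0.10 and 0.03, and DNMT3B, a DNA methyltransferase, had 0.51 at an adjusted p of 0.114. In the marker lists, KDR of endothelial cells fell by 1.11 (adjusted p = 0.00115) while the endothelial sum ran from 333 to 362 with the empty vector and from 291 to 314 with overexpression. The immune sum ran from 499 to 524 and from 534 to 705, was mostly LYZ, and PTPRC and TYROBP were at 0. CD68 had a mean normalised count of 1.18 with the empty vector but 1340 reads in the sum of the strand columns, so most of its reads are not in the immune sum.

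**Figure D5:**
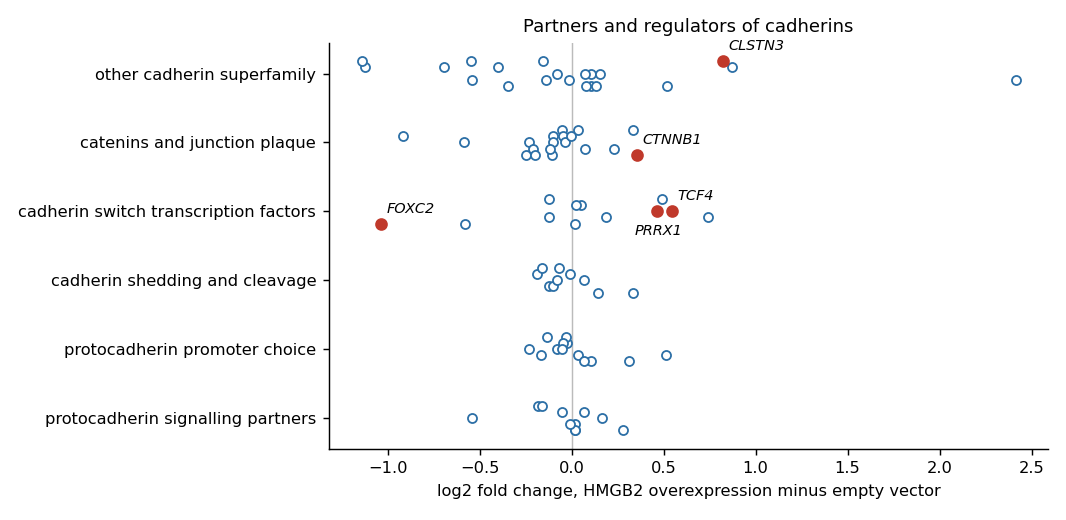
Log2 fold change of each tested gene in the 6 lists of cadherin partners and regulators, HMGB2 overexpression minus empty vector, with called genes in filled red. CLSTN3, CTNNB1, PRRX1 and TCF4 lie right of 0 and FOXC2 left of it, and the lower 3 lists hold no called gene.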

How the data were processed

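RNA of A375 cells was sequenced in 3 empty vector and 3 HMGB2 overexpression libraries. According to the submitters' processing notes, bcl2fastq 2.20, FastQC, Trimmomatic and STAR were used with GRCh38. The files that the authors deposited hold raw counts, in which a read is counted when it falls in a single gene. The STAR version and annotation release were not given in the sources used here. Counts for either strand were used, as the kit does not mark strand, and the summary lines that name no gene were left out. IDs were matched to GENCODE 44 (57532 of 58302).

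DESeq2 1.42.0 (R 4.3.3) was run on all genes with its defaults, a Wald test and group as the only term, as in the study's methods, and genes were called at an adjusted p under 0.05. Fold changes are unshrunken, and normalised counts are divided by DESeq2 size factors. The test was run on simulated counts drawn independently for each library. That check does not cover the differences of single libraries on which the calls depended. The alternatives were edgeR 4.0.16, TMM factors, a filter of 10 counts in 3 libraries, no independent filter, the sum of the strand columns, a replicate block, a term for replicate 3, replicates 1 and 2 only, and each library left out.

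Genes named are the called members, the 10 highest levels, CDH1, CDH2, CDH3, CDH13 and CDH19, the top gene of each cluster, and the called genes of each list. Others were chosen after their values were seen. The members and lists were chosen with earlier results of these data known. The promoters came from RefSeq.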

Additional observations from a re-analysis of the deposited data

How the results depend on the processing

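The counts of calls depended most on single libraries. With 1 library left out in turn, the members called higher numbered between 4 and 10 (main value 8), those called lower between 0 and 3 (1), all genes called higher between 155 and 1334 (432), all genes lower between 208 and 1520 (498), list genes higher between 0 and 6 (4) and list genes lower between 1 and 13 (1). Most calls came without the third empty vector library. The cluster log2 ratios ran from 0.181 to 0.254 for PCDHA, 0.193 to 0.391 for PCDHB and -0.0444 to 0.182 for PCDHG. Without the third empty vector library the value was the lowest for PCDHB and PCDHG and the highest for PCDHA. edgeR called 7 members higher and 0 lower, and 215 genes higher and 255 lower. A term for replicate 3 gave 10 members higher and 2 lower, 1374 and 1359 of all genes, and 9 and 7 list genes. Replicates 1 and 2 alone gave 8 members higher and 3 lower, 1203 and 1418 of all genes, and 10 list genes lower.

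Whether the replicate numbers pair the libraries was not settled. Deviations of the same-numbered libraries correlated at 0.0906, 0.142 and 0.349 for replicates 1, 2 and 3. Empty vector replicates 2 and 3 each correlated best with the overexpression library of the same number. Empty vector replicate 1 correlated best with overexpression replicate 2 (0.212). With a replicate block, 9 members were called higher and 2 lower, 886 and 940 of all genes, and 3 list genes lower. CDH17 then had an adjusted p of 0.172, PCDH1 of 0.000584 and CDH19 of 0.00682.

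Among the members named by rule, the sign of the log2 fold change turned for 4, none of them called. With 1 library left out it ran from -0.0118 (without the third empty vector library) to 0.195 for PCDHGC3, from -0.21 to 0.0837 for CDH13 (above 0 without the first or the second empty vector library or the third overexpression library), from -0.0246 (without the second overexpression library) to 0.0776 for PCDHA6 and from -0.293 (without the first) to 0.916 for CDH1. Over the full exon union, the level was 20.1 for PCDHGC3, 10.7 for CDH13, 2.63 for PCDHA6, 2.21 for PCDHB2 and 0.388 for PCDHA4. The causes were not tested.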
